A study of Mus musculus with 38 samples.

Results

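The collagen genes are described here: 73 of the 40628 gene probes of a mouse expression array, chosen because their gene name has the form Col, a number, the letter a and a number, which covers 40 of the 29411 gene names on the array. They were sorted into 11 fibrillar genes with 21 probes, 8 basement membrane genes with 16 probes, and 21 other collagen genes with 36 probes. The samples were 38 one-colour arrays of C57BL/6J mice, whose tissue label reads epididymal infiltrating macrophages (SVCs). Mice weaned at 3 to 4 weeks of age were put on 5 diets, with 30 animals in each group. LFC was a low fat diet with 10% of its calories from fat, and HFC was a high fat, high sucrose diet with 60% of its calories from fat. HF5, HF20 and HF75 were the HFC diet with 5, 20 or 75 µg of KAL-1, a plant-based formulation. LFC and HFC were each sampled at 10 time points, from day 6, 10 and 14 (called D6, D10 and D14) through week 0 (W0) and then every 3 weeks to week 18 (W18). The dosed diets were sampled at the 6 time points from W3 to W18. Weeks were counted from day 14, so D14 and W0 fall on the same day. The protocol speaks of 5 animals per group sacrificed every 3 weeks, but not of how many animals make up 1 array. There was 1 array for each diet and time point. In comparisons of diets the p-values measure the spread of the difference between time points. For slopes they measure the spread of arrays about the line. In the test of differing time points they measure the spread between diets of a time point. The diet label of 4 arrays names the other of the doses HF5 and HF20, and these arrays were grouped by their source name.

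Collagens are secreted proteins of 3 chains wound into a triple helix, in which glycine recurs at a fixed spacing. Fibrillar collagens (types I, II, III, V, XI, XXIV and XXVII) build the banded fibres that bear load in connective tissue. Type IV collagen forms the sheet of the basement membrane, which surrounds every fat cell and blood vessel, and types XV and XVIII sit in the basement membrane zone. Type VI collagen makes beaded filaments and is abundant around fat cells. In fat tissue the main source of fibrillar collagen is the stromal fibroblast, and macrophages make little of it.

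Some probes carry the collagen repeat itself. A glycine codon (GGN, in capitals) every 9 bases, at least 6 times in the 60 bases of a probe, was found in 3 of the 73 collagen probes (4.11%) and in 0 of the other 40555 probes. They are shown because the probe itself holds the repeat that defines the helix.
Col5a1 P237371: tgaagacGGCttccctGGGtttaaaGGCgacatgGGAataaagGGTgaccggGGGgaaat
Col5a3 P503796: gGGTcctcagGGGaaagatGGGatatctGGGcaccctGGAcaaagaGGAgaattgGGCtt
Col11a2 P563285: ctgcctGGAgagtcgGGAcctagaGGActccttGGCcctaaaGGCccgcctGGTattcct

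For 3 of the 4 probes that fell with time, described further on, the sequence is given with cysteine codons (TGC or TGT) in capitals, because cysteine is found in the globular ends of these chains and is rare in the helix. Col1a1 P658611 and Col3a1 P684242 have 4 such codons with the same spacing, which is 9, 6 and 21 bases from one to the next.
Col1a1 P658611: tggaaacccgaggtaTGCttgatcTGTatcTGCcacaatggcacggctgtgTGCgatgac
Col3a1 P684242: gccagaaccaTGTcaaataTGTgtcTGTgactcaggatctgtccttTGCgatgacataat
Col1a1 P377094: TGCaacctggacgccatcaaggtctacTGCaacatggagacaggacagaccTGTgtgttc

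A level is the log2 of the processed signal minus the log2 of the 75th percentile of that array, so a level of 0 is as bright as that percentile. Levels were compared between arrays for 1 probe at a time. The 75th percentile ranged from 25.8 (HF5 W12) to 1983 signal units (HFC W0), and from 41.0 to 91.2% of spots were well above background. HFC W12 and HF75 W12 had 11.07 and 14.28% of outlier spots, and the other 36 arrays had at most 2.1%. Markers were present for more than the labelled cell type. Of 9 macrophage markers 7 were well above background on every array, and so were 13 of 13 stromal fibroblast markers, 7 of 9 adipocyte markers and 8 of 8 endothelial markers. A lower share of a cell type and less RNA per cell cannot be told apart in these samples.

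Most collagen genes were measured. Taking for each gene the probe with the highest mean level, 22 of 40 genes were well above background on every array (7 of 11 fibrillar, 6 of 8 basement membrane and 9 of 21 other genes). A further 14 genes were well above background on at least 19 arrays. The remaining 4 were Col10a1, a collagen of growth plate cartilage, on 4 arrays, Col20a1 on 7, Col28a1 on 12 and Col9a1, a chain of cartilage type IX collagen, on 16. Where a gene had several probes well above background on 19 or more arrays, they did not always move together. Over 26 such pairs of probes from 20 genes, the correlation across arrays ran from -0.16 to 0.95 with a median of 0.63.

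How diet and time bear on the collagens was asked first with class levels, which are means over the genes of a class by the probe of highest mean level (11 fibrillar, 8 basement membrane and, without the 4 genes named above, 17 other genes). The fibrillar level of LFC ran from 0.55 to 2.50 and that of HFC from 0.45 to 2.10. The HF20 level had the widest range, from 0.01 at W12 to 2.73 at W6. The basement membrane level ran from -0.18 to 1.74 in LFC (median 0.56) and from 0.06 to 1.76 in HFC (median 0.90). The other collagens ran from -2.56 to -0.22 in LFC (median -0.79) and from -2.02 to 0.45 in HFC (median -0.41). All 5 diets overlapped in each class.

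**Figure D1:**
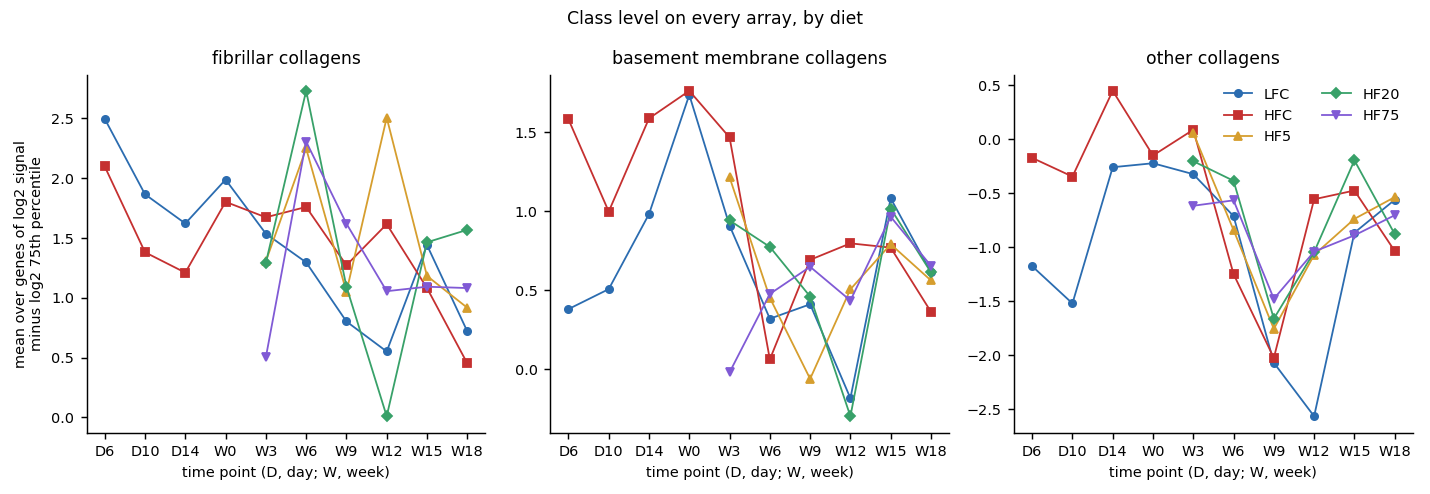
Class level (mean over the genes of a class of log2 signal minus log2 75th percentile, y axis) at each time point (x axis, equally spaced, D for day and W for week) with 1 point per array and a line per diet. The other collagens were between -2.07 and -1.48 on all 5 arrays of W9, and the fibrillar level was highest on the LFC array of D6 among the LFC arrays, at 2.50.

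The class levels also differed between time points. The fibrillar level was 2.10 and 2.50 on the arrays of D6 and between 0.45 and 1.57 on the 5 arrays of W18, so these time points did not overlap. The basement membrane level was highest at W0, at 1.74 and 1.76, and ran from 0.36 to 0.65 at W18. The other collagens were low at W9, from -2.07 to -1.48, against -0.61 to 0.09 at W3 and -1.03 to -0.53 at W18. The adipocyte markers had a mean level of 2.37 to 5.14 at W9 against 1.22 to 1.78 at W3 and 0.92 to 3.24 at W18, and the mural cell markers were at 2.18 to 3.27 at W9 against 3.53 to 3.88 at W3 and 3.49 to 4.48 at W18. Their part in the low levels at W9 was not tested. No test was made on the class levels.

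Probes of Col1a1 and Col3a1 fell with time. In a fit over all 38 arrays with 1 slope on time for all diets and a term for each diet, 4 of 67 collagen probes tested (5.97%) had an adjusted p under 0.05, and all 4 fell. They belong to Col1a1, whose chain makes up most of type I collagen, and Col3a1, the single chain of type III collagen, which shares fibres with type I. Over all 33688 probes tested, 0.944% passed and 0.540% passed as falling. The fit counts the arrays of a time point as separate although they share that time point, so its p-values can be too small. Of the collagen probes 56 of 67 had a negative slope, with a median of -0.04 log2 per week, against a median of 0.004 over all probes, of which 55.7% had a positive slope. At an unadjusted p under 0.05, 18 collagen probes had a negative slope (26.9%) and 0 a positive one, beside probes of the whole array of which 5.45% had a negative slope and 8.44% a positive one. Next in order, without passing, were Col6a3 P479262 at -0.07 (adjusted p = 0.076), Col5a1 P414637 at -0.06 (adjusted p = 0.096) and Col18a1 P191700 at -0.04 log2 per week (adjusted p = 0.12).

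**Figure D2:**
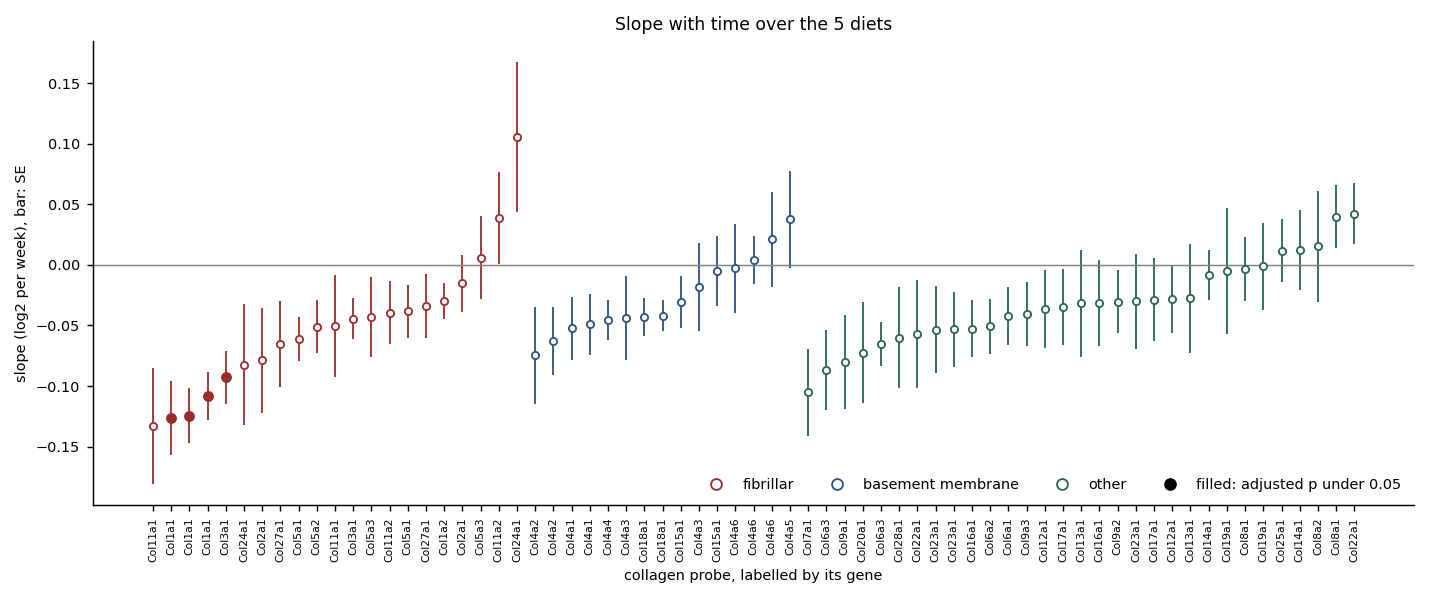
Slope on time (y axis, log2 per week, bars are SE) for each of the 67 collagen probes tested (x axis, labelled by gene and sorted by class and slope). Filled points are the 4 probes with an adjusted p under 0.05, which are 3 probes of Col1a1 and 1 of Col3a1, and 56 of the 67 points lie below 0.

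Col1a1 probe P658611 was at -0.95 in HFC and -0.90 in LFC at D6, and between -4.98 and -2.95 on the 5 arrays of W18. The lowest levels were at W12, from -5.80 in HF75 to -2.77 in HFC. Its slope was -0.12 log2 per week (SE 0.02, limma, adjusted p = 0.0033), which is a fall to 0.212 times the starting signal over 18 weeks. The arrays of D6 lay above every array of W18, and this probe was well above background on 34 of 38 arrays.

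Col1a1 probe P525107 was at 6.55 and 7.22 at D6, at 6.74 and 7.92 at D10, and between 3.04 and 4.99 at W18. Its slope was -0.11 log2 per week (SE 0.02, limma, adjusted p = 0.0034), a fall to 0.26 times. The spot was saturated on 10 of 38 arrays, 5 of them HFC and 1 LFC, where its level is a lower bound.

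Col1a1 probe P377094 averaged 3.59 over both arrays of D6, was at 3.89 and 4.30 at W0, and between -0.40 and 1.75 at W18. It was well above background on all 38 arrays and saturated on 0. Its slope was -0.13 log2 per week (SE 0.03, limma, adjusted p = 0.034), a fall to 0.207 times. The lowest array was HF75 W3, at -1.52, one of the dimmest arrays with a 75th percentile of 88.4.

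Col3a1 probe P684242 was at -0.74 in LFC at D6 and averaged -0.65 over both arrays of that day. At W18 the 5 arrays averaged -2.96, and the lowest of them was HF5 at -3.69. Its slope was -0.09 log2 per week (SE 0.02, limma, adjusted p = 0.026), a fall to 0.314 times. The brighter Col3a1 probe P515605 had a slope of -0.04 (SE 0.02, adjusted p = 0.21) that did not pass, and it was saturated on 16 of 38 arrays. Col1a2, the partner of Col1a1 in type I collagen, had a slope of -0.03 (SE 0.01, adjusted p = 0.36) that did not pass either, and its probe was saturated on 24 of 38 arrays. The call of P684242 was also lost with quantile scaling (adjusted p = 0.059) and with slide as a random block (adjusted p = 0.057).

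**Figure D3:**
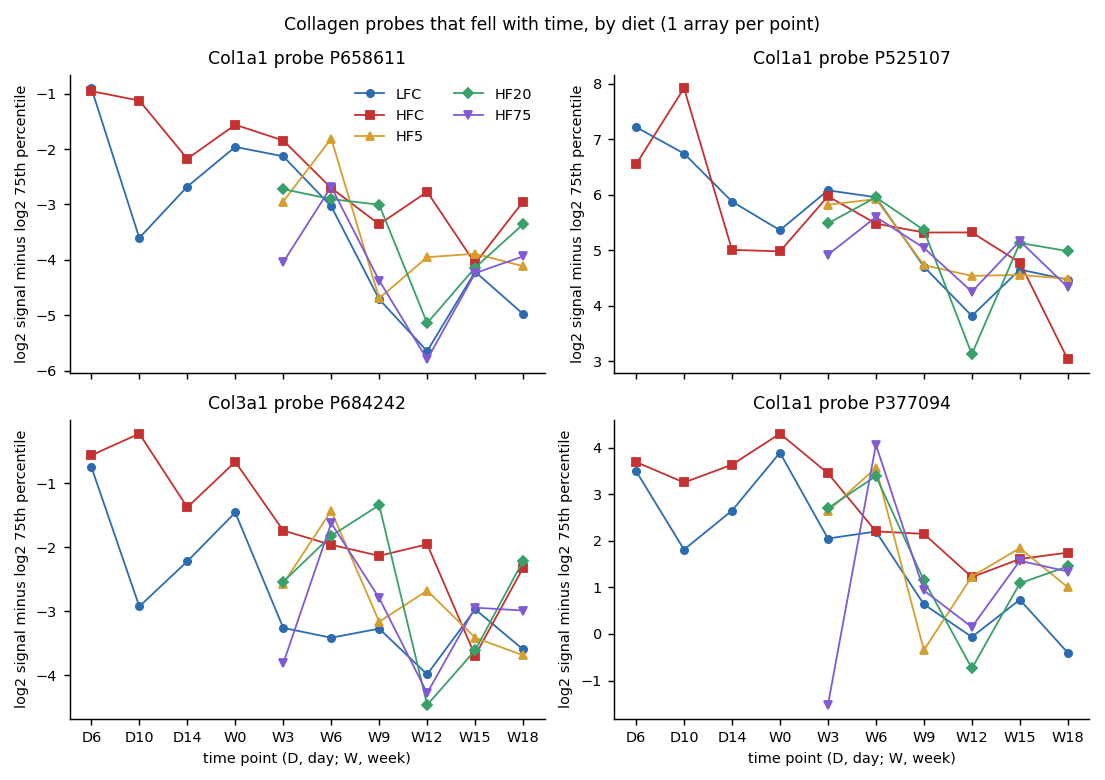
Level (y axis, log2 signal minus log2 75th percentile) of the 4 collagen probes with an adjusted p under 0.05, at each time point (x axis, equally spaced, D14 and W0 fall on the same day), with 1 array per point and a line per diet. In LFC and HFC, where early arrays exist, P658611 went from -0.90 and -0.95 at D6 to -4.98 and -2.95 at W18.

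Col1a1 P658611 and P525107 stayed under the threshold when any 1 time point was left out. The call of Col3a1 P684242 was lost without D6, W0, W6 or W15 (adjusted p up to 0.168) and that of Col1a1 P377094 without any of D6, D14, W0, W6, W12, W15 or W18 (adjusted p up to 0.121). The scan days followed the time points, and the mice grew older with them. The day an array was scanned, the age of the mice and the time on diet cannot be told apart. With normexp background correction 0 collagen probes passed, where 17 of all probes did, and the slopes of these 4 probes ran from -0.12 to -0.06. Without the 4 arrays of D6 and D10, 2 collagen probes passed, both of Col1a1 (P658611 and P525107), a count given without the share of all probes.

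Within each control diet the slopes did not pass. In LFC alone 8 of 56 collagen probes (14.3%) had an unadjusted p under 0.05, all negative, against 2.42% of all probes that did so as falling, and 0 of 28466 probes passed adjustment. The LFC slopes of smallest p were Col1a1 P377094 at -0.18, P658611 at -0.17 and P525107 at -0.13 log2 per week (adjusted p from 0.74 to 0.84). In HFC alone 20 of 63 collagen probes (31.7%) had an unadjusted p under 0.05, all negative, against 4.41% of all 30873 probes that did so as falling, and 0 passed adjustment. Here Col6a3 led, with P573586 at -0.13 and P479262 at -0.09 log2 per week. Col6a3 is the largest chain of type VI collagen and the source of the fragment endotrophin. Col1a1 P377094 came next to P573586, at -0.13. The difference of the HFC and LFC slopes passed for 0 of 63 collagen probes and 0 of 31027 probes, and 5 collagen probes had an unadjusted p under 0.05, all positive (7.94% against 3.19% of all probes). The smallest p were those of Col24a1 P468927 at 0.21 log2 per week, Col5a1 P237371 and Col1a2.

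Time was also taken as 10 separate points, a test that takes in a trend as well as other differences between time points. Here 36 of 67 collagen probes passed (53.7%), and 39.8% of all 33678 probes did. Col19a1 P146726, grouped with the fibril-associated collagens, averaged -7.54 over the 5 arrays of W9 and -2.68 over those of W3 (limma, adjusted p = 0.00011). Col25a1 P333929, a transmembrane collagen, averaged -6.35 at W9 and -4.35 at W3 (adjusted p = 0.00012). Col12a1 P146168, a fibril-associated collagen, averaged -4.02 at W9 and -1.01 at W6 (adjusted p = 0.00014). Each of these 3 probes was lowest on average at W9. Their levels at W9 and W3 did not overlap. Col19a1 was at most -6.50 at W9 and at least -3.03 at W3, and Col25a1 was at most -5.57 at W9 and at least -4.91 at W3. They were well above background on 28, 27 and 37 arrays.

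Col11a2 P563285, a chain of type XI collagen with the glycine repeat shown above, averaged -7.73 at W0 and -3.53 at D6 (adjusted p = 0.00018). The other probes among the 10 of smallest p were Col1a1 P525107 and P658611, Col9a1, Col9a2, Col11a1 and Col13a1 P240374. Col11a1 P459477 averaged 0.04 at W6 and -5.45 at W9. Col13a1 averaged 0.22 at W15 and -3.73 at W9. At W9 the dosed arrays had signals rounded to whole numbers, and the part of this in the low levels was not tested. The class level of the other collagens at W9 was -2.07 in LFC and -2.02 in HFC, which were not rounded. It ran from -1.75 to -1.48 on the dosed arrays. The count of collagen probes passing was 7 among LFC and HFC arrays alone and 6 with normexp correction. The shares of all probes in these fits are not given, so these counts are not set against the whole array.

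The HFC diet was next set against LFC at the same time point. No collagen probe passed, and 0 of the 31027 probes did. At an unadjusted p under 0.05, 10 of 63 collagen probes (15.9%) were higher in HFC and 0 lower, where 4.57% of all probes were higher and 4.52% lower. The median difference of the collagen probes was 0.26 and that of all probes 0.006, and with normexp correction, which moved the median of all probes to -0.23, the collagen median was -0.05. The tissue markers differed too, without passing. All 9 macrophage markers had positive differences, with 0 called, and their mean level ran from -0.08 to 1.78 in LFC and -0.22 to 2.15 in HFC. Of 13 stromal fibroblast markers 11 had positive differences, 0 of them called, and their mean level ran from 2.27 to 3.58 in LFC and 2.16 to 4.23 in HFC. Negative differences prevailed for adipocyte markers (8 of 9, median -0.63), endothelial markers (8 of 8, median -0.61), mural markers (7 of 9, median -0.16) and skeletal muscle markers (8 of 9, median -1.12). All 8 mesothelial markers had positive differences with a median of 1.80, and 7 of 8 epididymis markers did with a median of 1.83. Their mean levels ran from -5.50 to 2.42 in LFC and -4.13 to 3.49 in HFC for mesothelium, and from -7.88 to 3.91 in LFC and -7.65 to 3.34 in HFC for epididymis. Of all these lists 0 genes were called, and their part in the collagen differences was not tested. Adding the stromal level to the fit left 2 collagen probes at an unadjusted p under 0.05 and a collagen median of 0.02. The share of all probes in that fit is not given, so the lower count is not set against the whole array.

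Over the 37 genes tested, by the probe of highest mean level, 10 were higher in HFC at 8 or more of 10 time points (27.0%), against 7.26% of all probes. They were Col5a1, Col5a2 and Col27a1 of the fibrillar class, Col4a5 and Col4a6 of the basement membrane class, and Col6a1, Col6a2, Col6a3, Col7a1 and Col9a3 of the other class. Lower at 8 or more were 2 genes (5.41%), against 10.2% of all probes. These were Col1a2 and Col3a1, whose probes were saturated on more HFC than LFC arrays and whose mean turned positive with quantile scaling. Of the 18 other collagen genes 17 had a positive mean difference, of the fibrillar genes 5 of 11 and of the basement membrane genes 5 of 8. With quantile scaling these counts were 14, 7 and 6, with normexp correction 11, 5 and 6, and with the stromal level in the fit 6, 5 and 6.

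**Figure D4:**
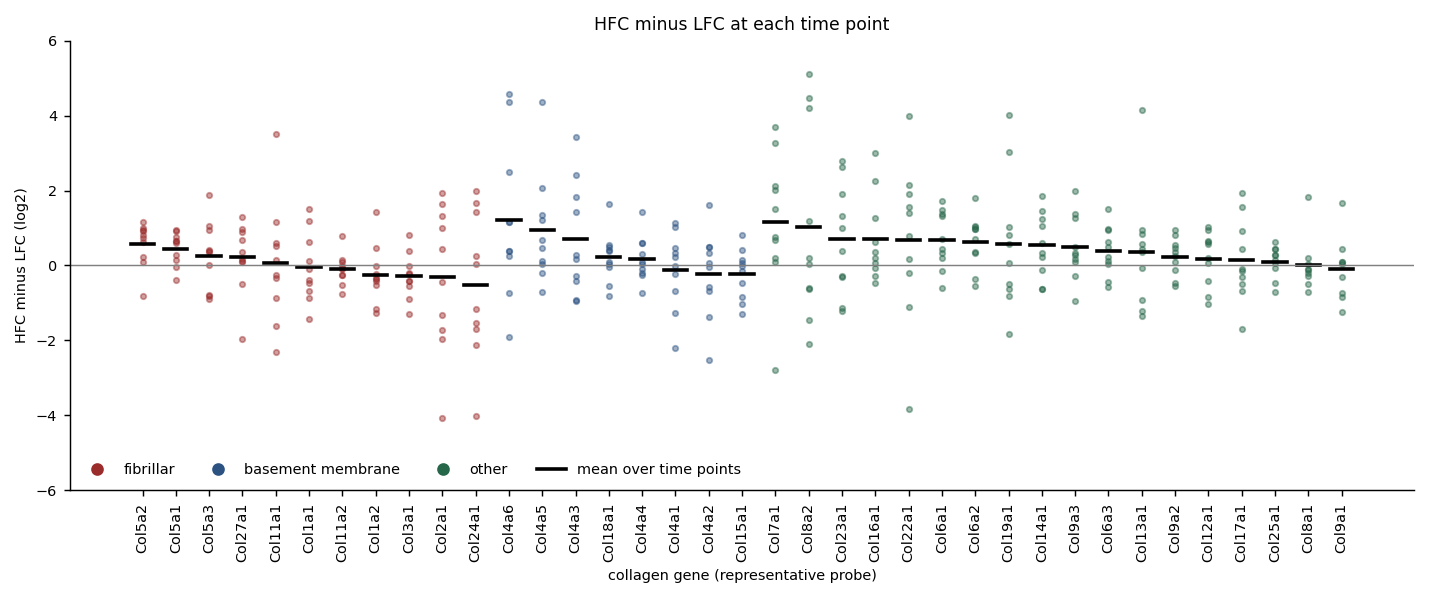
HFC minus LFC at each time point (y axis, log2, 1 point per time point, black bar is the mean) for the 37 collagen genes tested (x axis, by class and mean). Of the 18 other collagen genes 17 have a mean above 0, of the fibrillar genes 5 of 11 (14 and 7 with quantile scaling, 11 and 5 with normexp correction). The highest single value is 5.10 log2, for Col8a2 at D10, where the mesothelial marker level was 2.46 in HFC and -5.50 in LFC.

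Type V collagen nucleates fibrils. Col5a2 ran from -0.22 to 2.08 in LFC (median 0.87) and from 0.15 to 2.18 in HFC (median 1.63), and HFC was higher at 9 of 10 time points. The difference was 0.57 log2 (SE 0.20, limma, adjusted p = 0.545) and W15 was the exception, at -0.81. Col5a1 ran from 1.98 to 3.79 in LFC and 1.81 to 4.06 in HFC, with a difference of 0.45 (SE 0.16, adjusted p = 0.545) and 8 of 10 time points higher. The groups overlapped for both genes.

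The 3 common chains of type VI collagen followed. Col6a1 ran from 1.26 to 3.76 in LFC (median 2.13) and from 1.91 to 4.09 in HFC (median 2.95), a difference of 0.68 (SE 0.24). Col6a2 had a difference of 0.63 (SE 0.22) and Col6a3 of 0.38 (SE 0.21). Each was higher in HFC at 8 of 10 time points, and none passed the adjusted threshold. Col7a1, the collagen of the anchoring fibrils beneath epithelia, ran from -2.87 to 1.67 in LFC and -2.04 to 1.74 in HFC, with a difference of 1.16 (SE 0.53) and 9 of 10 time points higher. HFC W12 had 11.07% of outlier spots, and LFC W12 was the lowest of 38 arrays for Col7a1. The largest differences of Col7a1 were 3.69 at D10, 3.26 at W12 and -2.79 at W6. The mesothelial markers also differed between the diets at these time points, as given below.

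In the basement membrane class Col4a6 and Col4a5, the chains of a network found under some epithelia and smooth muscle, had differences of 1.22 and 0.94. These means rest on a few time points, since Col4a6 was 4.36 and 4.58 higher at D6 and D10, and Col4a5 was 4.36 higher at W12. HFC W12 had 11.07% of outlier spots, and LFC W12 was the lowest of 38 arrays for Col4a5. The part of this was not tested. Col4a6 was measured by P516409, which across arrays had r = 0.80 with P109326 and -0.16 with P447196. P447196 was well above background on all 38 arrays. Tissue markers also differed at D6, D10 and W12. The mesothelial level in HFC and LFC was 3.49 and -4.05 at D6, 2.46 and -5.50 at D10, and 2.01 and -0.75 at W12. At W6 it was -4.13 and 1.27, with a Col4a6 difference of -1.91. At W18 it was 3.23 and 0.46, with a Col4a6 difference of -0.73. The part of these markers was not tested. Col4a1 and Col4a2, which form the common type IV network, were higher at 5 of 10 time points each. Col4a1 ran from 1.62 to 5.40 in LFC and 2.26 to 4.32 in HFC. Col4a2 ran from 0.85 to 5.06 in LFC and 1.34 to 4.02 in HFC. Their means were -0.12 and -0.22 and were smaller than the spread between time points (SD 1.03 and 1.14). Col15a1 had a difference of -0.24 and Col18a1, the source of endostatin, of 0.22.

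The probes of Col1a1 and Col3a1 disagreed on diet. Col1a1 P377094 ran from -0.40 to 3.89 in LFC (median 1.93) and from 1.22 to 4.30 in HFC (median 2.73), and HFC was higher at 10 of 10 time points, by 1.02 (SE 0.21, limma, adjusted p = 0.545). P658611 was higher at 9 of 10, by 1.04 (SE 0.32), and Col3a1 P684242 at 9 of 10, by 1.12 (SE 0.29). The brighter probes did not follow. Col1a1 P525107 was higher at 4 of 10 time points with a mean of -0.05, Col3a1 P515605 at 2 of 10 with -0.28, and Col1a2 P182303 at 2 of 10 with -0.25. Saturation differed between the diets for these 3 probes. P525107 was saturated on 5 HFC and 1 LFC arrays, P515605 on 8 and 2, and Col1a2 on 9 and 5, so that HFC levels are more often lower bounds. With quantile scaling their means were 0.25, 0.18 and 0.30, with normexp correction -0.21, -0.04 and 0.02, and with the stromal level in the fit -0.60, -0.31 and -0.29, so their direction turned between settings. The probes P377094, P658611 and P684242 were saturated on 0 arrays. With normexp correction P658611 was 0.23 and P684242 0.38 higher in HFC, and P377094 was 1.01 higher.

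KAL-1 doses were compared with HFC over W3 to W18. No collagen probe passed for any dose or for the mean of the doses, and 0 of 33709 probes did. The unadjusted counts were 2 of 66 for HF5 (3.03%, where 4.73% of all probes did), 0 for HF20 (where 1.53% did), 2 for HF75 (3.03% against 1.95%) and 1 for the mean of the doses (1.52% against 1.74%). All dose comparisons share the HFC arrays. Col1a1 P658611 had the smallest p for HF75. It ran from -5.80 to -2.68 in HF75, from -4.70 to -1.81 in HF5 and from -5.14 to -2.72 in HF20. HF75 minus HFC was -1.23 (SE 0.39, limma, adjusted p = 0.9998) and the probe was lower in HF75 at 5 of 6 time points. Its largest differences were -2.20 at W3 and -3.03 at W12. HF75 W3 was one of the dimmest arrays (75th percentile 88.4), and HF75 W12 had 14.28% of outlier spots. The HF75 value ran from -1.48 to -0.87 when 1 time point was left out. HF5 minus HFC was -0.62 and HF20 minus HFC was -0.60 for this probe. The HF20 value ran from -0.79 to -0.24 when 1 time point was left out, with the single difference at W12 at -2.37, and it was 0.29 with normexp correction. The mean of the doses minus HFC was -0.82 (SE 0.32, adjusted p = 0.9999), and 0.13 with normexp correction. Next in order for HF75 were Col9a1 P231036 at 1.22, higher at 4 of 5 time points but -0.39 with normexp correction, and Col5a1 P237371 at -0.97, lower at 4 of 6. Col5a1 P237371 was at -3.35 at W3, and its mean ran from -1.19 to -0.50 when 1 time point was left out. For HF5 the smallest p were those of Col11a2 P563285 and Col22a1 P434306. P563285 was lower at 6 of 6 time points by 0.41 to 1.75 log2, and its mean of -0.98 became 0.31 with normexp correction. At W15 and W18, where the dose labels conflict, its differences were -1.19 and -1.75 in HF5 and 0.37 and 0.36 in HF20. The other Col11a2 probe, P264666, came next in order and went the opposite way, at 0.89 (SE 0.47) and higher at 5 of 6 time points, with 3.91 at W12. Col22a1 was at 2.12 and higher at 4 of 6. Its differences at W15 and W18 were -1.27 and 4.75 in HF5 and -0.52 and 0.57 in HF20. The other Col22a1 probe, P145010, was well above background on 32 arrays and had r = 0.03 with P434306 across the 38 arrays. For HF20 the smallest p were those of Col25a1 P333929 at 0.47, Col1a1 P658611 and Col20a1 03212 at 1.24. For the mean of the doses Col20a1 03212 at 1.33 and Col3a1 P684242 at -0.55 followed Col1a1 P658611, and the value of Col3a1 was 0.14 with normexp correction. Col20a1 03212 was well above background on 7 of 38 arrays, and a probe was tested once any 1 diet reached the share of 0.5. With 1 time point left out, Col20a1 03212 was still tested in 3 of 6 fits. Its HF5 difference at W12 was 8.15, on the array with the lowest 75th percentile (25.8). HFC minus LFC over W3 to W18 was positive at an unadjusted p under 0.05 for 3 of 66 collagen probes (4.55%, where 2.38% of all probes were). It was 1.17 (SE 0.39) for Col1a1 P658611, 1.12 for Col3a1 P684242 and 1.09 for Col4a6 P109326, and none passed.

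The HF20 array of W12 stood apart for the collagens. It was the lowest of the 38 arrays for 8 of 12 genes described by their levels (Col1a1, Col1a2, Col3a1, Col5a1, Col5a2, Col4a1, Col4a2, Col15a1, Col18a1, Col6a1, Col6a2 and Col6a3). Col5a2 was at -1.41 there and Col4a1 at 0.30. The array was also lowest in the stromal fibroblast level (1.62) and the adipocyte level (-0.66). Without it, a choice made after seeing the data, 5 collagen probes passed in the slope on time and 0 in HF20 minus HFC. The share of all probes passing without this array is not given.

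Pairs of collagen genes were compared across the 38 arrays. Of 14 pairs, 8 join chains of 1 molecule and 6 join different molecules. A permutation test of Pearson's r with 100000 resamples had an adjusted p under 0.05 for 13 pairs, 8 of the first kind and 5 of the second. Col4a1 and Col4a2 had r = 0.94 (rho = 0.94, permutation test, adjusted p = 3.5e-05 for both), and 0.92 without the 2 arrays farthest from the median of Col4a1. Among 33686 probes of other genes, that of Col4a2 ranked 1st in its r with Col4a1. Both genes are read in opposite directions from 1 region, in which their annotated starts overlap by 22 bases, and these are shown because this pair had the highest r (RefSeq, GRCm38.p6, plus strand, chr8:11312805-11312826).
Shared start of Col4a1 and Col4a2: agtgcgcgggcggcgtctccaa
Col4a5 and Col4a6, whose starts lie 1343 bases apart on chromosome X, had r = 0.37 (rho = 0.42, permutation test, adjusted p = 0.026 and 0.012), and 0.63 without the 2 farthest arrays.

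**Figure D5:**
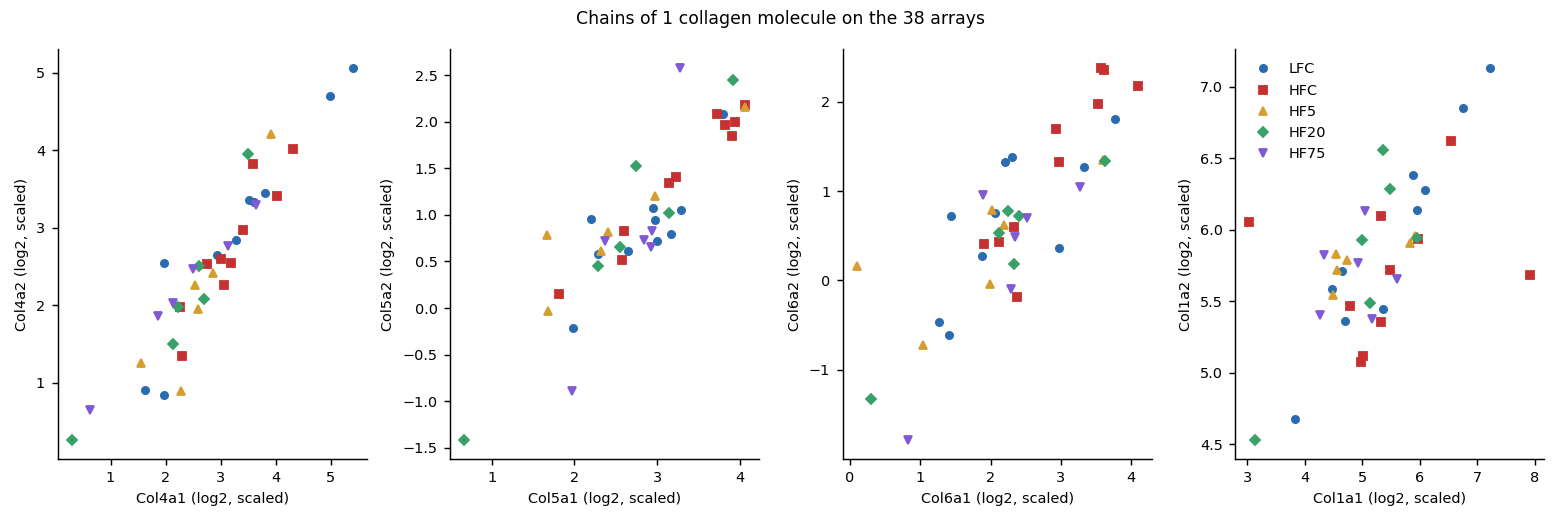
Levels of both chains of a molecule (x and y axis, log2 signal minus log2 75th percentile, 1 point per array, coloured by diet). The points of Col4a1 and Col4a2 lie close to a line (r = 0.94), those of Col5a1 and Col5a2 and of Col6a1 and Col6a2 somewhat less (0.89 and 0.82), and those of Col1a1 and Col1a2, both saturated on some arrays, the least (0.60).

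Col5a1 and Col5a2 had r = 0.89 (rho = 0.86), with the partner ranked 2nd of 33686. Col6a1 had r = 0.82 with Col6a2 (rho = 0.75) and 0.80 with Col6a3 (rho = 0.73), with the partners ranked 6th and 12th. Each of these 3 pairs had an adjusted p of 3.5e-05 for both measures in the permutation test. Without the 2 farthest arrays r was 0.88, 0.84 and 0.73. Col1a1 and Col1a2, measured by their brightest probes, had r = 0.60 (rho = 0.58, adjusted p = 0.00024 and 0.00034) and 0.80 without HFC D10 and HFC W18. Within LFC r was 0.95 and within HFC 0.17, on 10 arrays each. Among chains of 1 molecule r was lower for Col4a3 and Col4a4, at 0.54, and for Col8a1 and Col8a2, at 0.35 on 37 arrays, which was 0.03 without W9 and W12. Among different molecules r was 0.65 for Col1a1 and Col3a1, 0.61 for Col4a1 and Col6a1, 0.53 for Col1a1 and Col5a2, 0.52 for Col1a1 and Col4a1, and 0.36 for Col1a1 and Col6a1, which was 0.21 without W9 and W12. Col15a1 and Col18a1 missed the threshold, at r = 0.23 (rho = 0.24, permutation test, adjusted p = 0.16 and 0.14). The arrays of W3, W6, W9 and W18 were not all scanned on 1 day, so taking away the mean of each time point leaves some scan day differences. With that mean taken away r was 0.90 for Col4a1 and Col4a2 and 0.85 for Col5a1 and Col5a2. It was 0.82 for Col6a1 and Col6a2 and 0.37 for Col1a1 and Col1a2, and 8 of 14 pairs passed.

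The genes outside the family whose levels ran most alike differed by collagen. For Col4a1 they were Nrp1 (r = 0.86), a receptor of vessel and nerve growth factors, Fam101b (0.85), Lgals9 (0.84), Pxdn (0.84), an enzyme that cross-links type IV collagen, and Cdc42ep1 (0.82). For Col6a3 they were C1qtnf6 (0.84), the noncoding RNA Meg3 (0.80), Fkbp10 (0.79), which helps to fold procollagen, Spats2l (0.79) and Mrgprf (0.78). For Col1a1 they were Gm15428 (0.78), Spc24 (0.76), Gm7856 (0.75), Fignl1 (0.75) and Tap1 (0.74). With the mean of each time point taken away the values for Col1a1 were 0.38, 0.55, 0.47, 0.59 and 0.17, those for Col4a1 ran from 0.77 to 0.82 and those for Col6a3 from 0.49 to 0.75. These correlations are a description over the same arrays.

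Genes that make, trim and bind collagen were counted from lists. In HFC minus LFC no member passed. Of 16 folding and modification genes tested 13 had positive differences with a median of 0.23, and Plod2, which hydroxylates lysine for cross-links, had 0.64 (SE 0.22). Of 6 cross-linking genes 5 had positive differences, with a median of 0.61 beside 0.006 over all probes, and the oxidases Loxl1 and Loxl2 had 1.07 (SE 0.25) and 0.78 (SE 0.23). Of 6 propeptide processing genes 5 had positive differences, and Bmp1, which cuts off the C-propeptide, had 0.64. Of 10 fibril binding genes 8 had positive differences with a median of 0.58. Fn1, fibronectin, had 1.15 (SE 0.33) and Fmod, fibromodulin, 1.33 (SE 0.45). Of 10 receptor and uptake genes 7 had positive differences. All of these genes had an adjusted p of 0.54 or more.

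In the slope on time 0 members of these lists passed. Of the folding genes 13 of 16 had a negative slope, Fkbp10 with -0.06 log2 per week (SE 0.02, adjusted p = 0.12) and Glt25d1 with -0.04 (adjusted p = 0.15). Of the fibril binding genes 8 of 10 had a negative slope, with a median of -0.01, and Sparc had -0.04 (adjusted p = 0.27). Of the receptor and uptake genes 8 of 10 had a positive slope, with a median of 0.01. The propeptide processing genes had 5 of 7 negative slopes and the cross-linking genes 4 of 6. Of the stromal fibroblast markers 6 of 13 had a negative slope and their median was 0.003, beside -0.04 for the collagen probes. With the stromal level in the fit 5 collagen probes passed, a count given without the share of all probes. The macrophage markers had a median slope of 0.005, and 6 of 9 were positive. All 8 epididymis markers had a negative slope with a median of -0.17, and all 8 mesothelial markers a positive one with a median of 0.10, with 0 called. The mean level of the epididymis markers was -6.53 in LFC and 1.54 in HFC at D6, and ran from -6.36 to -2.75 at W18. Their part in the collagen slopes was not tested.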

How the data were processed

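The authors deposited Agilent Feature Extraction output of 38 arrays (version 9.1 per the labels' processing notes, a later one per the file headers), whose processed signal is a background-subtracted intensity, and a table of log2 ratios of each array to the LFC array of its time point, used as an alternative. Control spots and outlier spots were left out, spots of a probe averaged, and log2 signals set relative to each array's 75th percentile. Probes well above background on a share of 0.5 of the arrays of a diet were tested with limma 3.58.1 (lmFit, eBayes, two-sided, Benjamini-Hochberg over all probes, threshold 0.05) in R 4.3.3 with statmod 1.5.0, with time point as a block (time labels, not animals, pair the diets) or with a slope per week. Correlations used Python 3.11.15, numpy 2.4.6 and pandas 2.3.3. The number of arrays limits the precision. All probes of a comparison that passed were named (at most the 10 of smallest p), otherwise the 3 of smallest p; levels were given for 12 genes, and the 5 most alike genes for Col1a1, Col4a1 and Col6a3. The collagen members and all gene lists were chosen with earlier results of these data known. Alternatives were quantile scaling, normexp background (offset 50), other filters, brightness, stromal level, slide, no block, left-out time points, the methods' t-test and the deposited log2 table. The dose named by the diet label was another. Scripts were tested on simulated data.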

Additional observations from a re-analysis of the deposited data

Results flagged for a closer look

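In the HF20 group 2 values lay far from the others of their group. Col1a1 P525107 was at 3.13 at W12 and its nearest neighbour at 4.99, a gap of 0.657 of the whole range, above the 95% critical value of Dixon's test for 6 arrays. Col3a1 P515605 was at 3.39 at W12 and its nearest neighbour at 5.45, with a gap of 0.657 of the range. Both are on the same array. Of 90 groups examined (18 items in 5 diets) 2 were marked in this way, and chance marks about 1 group in 20. The same array had the lowest stromal fibroblast level of all 38, 1.62, and their relation was not tested.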

How the results depend on the processing

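The count of collagen probes passing in each comparison was 0 in all diet, dose, single-diet slope and slope-difference comparisons, in the setting used and in every alternative run. In the slope on time the count of 4 became 0 with normexp background, and 2 with probes well above background on every array, with slide as a random block, and without D6 and D10 (an alternative chosen after seeing the data). Leaving out each time point gave 2 to 7, with 2 without D6, W0, W6 or W15 and 7 without W3. In the test of differing time points the count of 36 became 6 with normexp background, 13 with probes well above background on every array and 7 with LFC and HFC arrays alone, and leaving out each time point gave 26 to 46. Of 14 chain pairs 13 passed, and 8 with the mean of each time point subtracted. In the paired comparison of HFC and LFC, dropping the time point block left 0 collagen probes called and 2 in place of 10 at an unadjusted p under 0.05. The cause of these changes was not tested, apart from the fewer probes and arrays that some alternatives hold. The counts of collagen probes are given without the share of all probes under each alternative. No called value of a named probe changed sign. Levels of dim probes are limited by signal over background and those of Col1a1, Col1a2 and Col3a1 by saturation.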
